A study of Mus musculus with 12 samples.

Results

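The integrin and laminin chain genes of the mouse palate were followed in 12 RNA-sequencing libraries of the anterior hard palate. The 32 genes were chosen by symbol, as the numbered integrin alpha, integrin beta, laminin alpha, laminin beta and laminin gamma genes, from 24391 genes counted. They comprise 12 integrin alpha, 9 integrin beta, 5 laminin alpha, 3 laminin beta and 3 laminin gamma genes. The symbol rule left out 3 integrin-binding proteins, Itgb1bp1, Itgb1bp2 and Itgb3bp, and it does not match lettered integrins such as Itgav.

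The mutants carried Shox2-Cre and R26R-Fgf8, so that Cre made under Shox2 control switches on an Fgf8 transgene at the R26R locus, only in cells that express Shox2 and in their descendants. The controls were labelled wild type, on C57BL/6, and a control with Cre alone was not analysed here. The 4 groups were mutants at embryonic day 14.5 (E14.5), controls at E14.5, mutants at E16.5 and controls at E16.5, with 3 libraries each. The labels do not say whether a library was made from 1 embryo or from pooled tissue, so the p-values measure the spread between libraries of unstated origin.

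An integrin is a receptor made of an alpha and a beta chain that spans the cell membrane, binds extracellular matrix outside the cell and couples through talin and kindlin to the actin skeleton inside it. A laminin is a cross-shaped trimer of an alpha, a beta and a gamma chain, and it forms the sheet of the basement membrane to which epithelium, endothelium, muscle and nerve attach through integrins and dystroglycan. In the palate the oral and nasal epithelia rest on such a sheet, and the mesenchyme beneath them, from which palatal bone forms, lies in a matrix rich in collagen and fibronectin.

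Libraries held between 76417891 and 125996587 counted reads, of which the 32 genes took 0.324% to 0.386%. Levels are CPM, reads of a gene relative to the library total after scaling for library composition (TMM factors). Fgf8, the transgene's product, averaged 10.8 ± 0.275 CPM in E14.5 mutants and 0.316 ± 0.0938 CPM in the controls of that age, and 16.1 ± 1.93 CPM in E16.5 mutants and 0.383 ± 0.110 CPM in E16.5 controls (SD, n = 3 each). None of the 8 palate mesenchyme markers was at 0 in any group. The 2 E16.5 mutant libraries numbered 1 and 3 stood apart. Their retinal markers (5 genes) summed to 107 and 53.1 CPM, against 0.413 CPM in E16.5 mutant library 2 and 0.146 to 2.16 CPM in E16.5 controls. Their neuronal markers (6 genes) summed to 194 and 108 CPM, against 30.3 CPM in mutant library 2 and 19.2 to 23 CPM in controls. The E16.5 genotype calls of the 32 genes that ended without these 2 libraries are given both ways below. In that fit mutant library 2 is the only mutant, and it is assumed to vary like the controls.

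At E14.5 the mutant palates had less transcript of several integrin alpha and laminin chains. Of the 31 genes that passed the filter on low counts, 8 fell and 2 rose at an adjusted p under 0.05 (32.3% of the 31, against 7.52% of all 16650 genes tested). The genes that fell were Itga10, Lamc3, Itga7, Itga11, Lamb2, Itga9, Lamc1 and Lamb1. They make up 25.8% of the 31, against 4.57% of all genes tested. The genes that rose were Itgb8 and Itga1, or 6.45% against 2.95%. In 14 of the 31 genes (45.2%, against 14% of all genes) no mutant library reached a control library, and in 5 (16.1%, against 14.6%) every mutant library was the higher. The 10 calls became 4 without mutant library 1, 5 without control library 3 and 6 with mutant library 2 left out. The median log2 fold change was -0.09 over the 31 genes and 0.01 over all genes tested. Palate mesenchyme markers (8 genes) summed to 4510, 4820 and 5550 CPM in E14.5 mutants, against 7910, 6560 and 8740 CPM in E14.5 controls, which do not overlap. Of the 8, Col1a1 fell (log2 fold change -1.31) and Prrx1 (2.33), Pax9 (0.49) and Osr2 (0.31) rose, and on removal of mutant library 2 only 1 rose. Their part in the results was not tested. These are bulk tissue libraries, in which fewer cells of a type and less RNA per cell cannot be told apart.

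At E16.5 more of these genes rose than fell, and most of those called had not passed at E14.5. Of the same 31 genes 9 rose and 4 fell (41.9%, against 27.9% of 17169 genes tested). Those that rose were Itga1, Itga4, Lama1, Itga8, Itga7, Lama4, Itgb3, Itga5 and Itga2, or 29% against 12.2% of all genes. Those that fell were Itgb7, Itga11, Itga2b and Lamc3, or 12.9% against 15.7%, a share near that of all genes. Mutant libraries were all higher in 10 genes (32.3%, against 18.3%) and all lower in 6 (19.4%, against 24.5%). Without E16.5 mutant libraries 1 and 3 the log2 fold changes of the 13 called genes kept their sign. Each of the 9 rises was then smaller, from 0.259 for Itga2 to 0.563 for Itga1. The 4 falls ran from -0.298 for Itga2b to -0.904 for Itgb7, and those of Itga11 (-0.631) and Lamc3 (-0.589) were larger than with all libraries. Calls that ended in that fit are named gene by gene below. Itga1, Itga7, Itga11 and Lamc3 passed the test at both ages, and of these Itga7 fell at E14.5 and rose at E16.5.

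**Figure D1:**
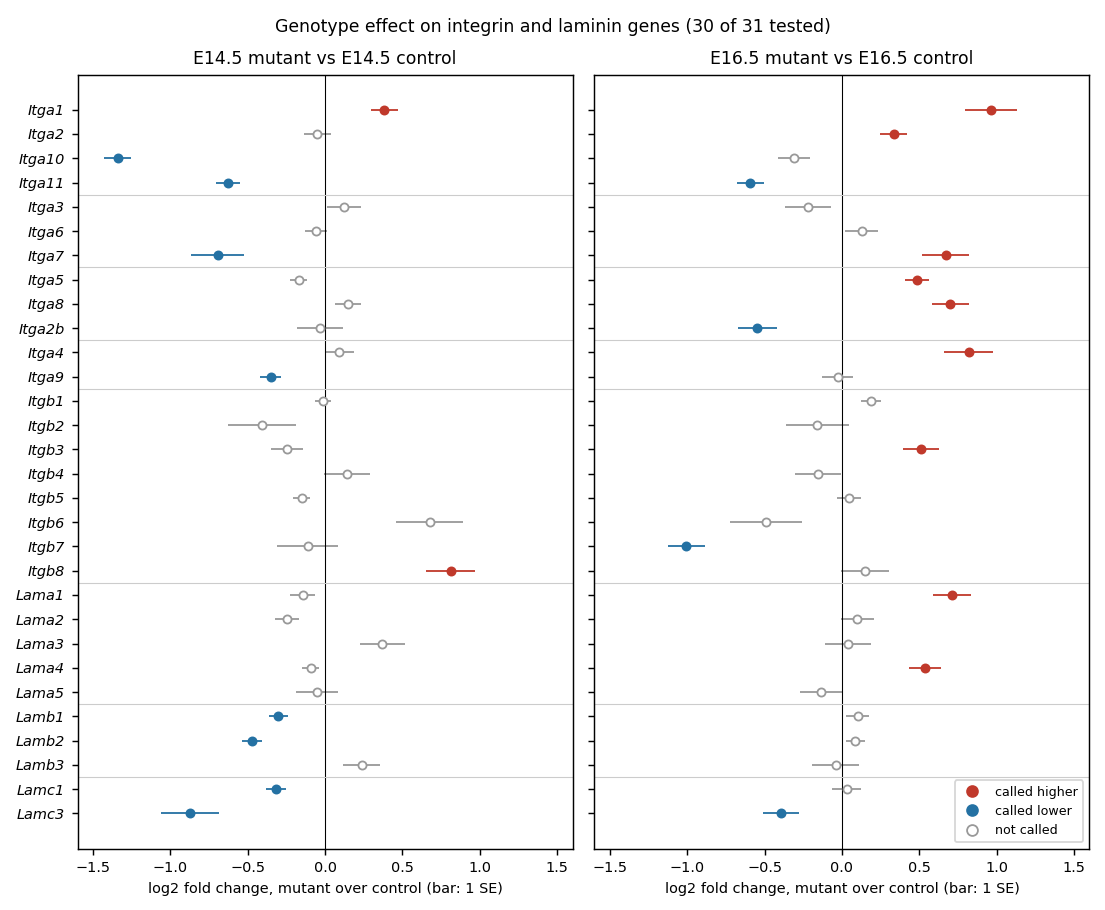
Log2 fold change of mutants over controls with its standard error for 30 of the 31 genes tested, at E14.5 and at E16.5, grouped by role. The points for Itga10 (-1.34 at E14.5) and Itgb7 (-1.01 at E16.5) lie farthest below 0, and those for Itga1 (0.96 at E16.5) and Itga4 (0.82 at E16.5) farthest above it.

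The difference between the genotype effects, E16.5 minus E14.5, was tested in 1 fit over all 12 libraries. It passed in 13 of 31 genes (41.9%, against 22.3% of 17550 genes tested). It was positive in 11 genes (35.5%, against 9.97%) and negative in 2 (6.45%, against 12.4%). Without E16.5 mutant libraries 1 and 3 all 13 kept their sign, and the calls that ended are given with the flagged results below. With libraries paired by number the difference passed in 19, the 13 and also Itga1, Itga2b, Itga9, Itgb1, Itgb8 and Lamc1. Calls over all genes rose as well, from 3921 to 6055 of the 17550 genes tested. Same-numbered libraries deviated together at E16.5 and not in all pairs at E14.5. The median difference was 0.30 log2 units over the 31 genes and -0.01 over all genes tested.

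The 4 collagen-binding alpha chains each pair with the beta chain of Itgb1 and bind collagens through an inserted domain. Itga1 and Itga2 encode receptors that prefer basement membrane collagen and fibrillar collagen, Itga10 encodes the collagen receptor of cartilage cells, and Itga11 encodes the fibrillar collagen receptor of mesenchymal fibroblasts. In these palates they did not move together: Itga1 rose at both ages, Itga11 fell at both ages, Itga10 fell at E14.5 and Itga2 rose at E16.5.

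The promoters of these 4 genes are shown because their transcripts moved in different directions. Each window runs from 250 bases before the start of the gene to 50 bases after it, on the gene's own strand, from RefSeq on build GRCm38.p6. The windows are Itga1 at chr13:115101915-115102214 on the minus strand, Itga2 at chr13:114932051-114932350 on the minus strand, Itga10 at chr3:96645334-96645633 on the plus strand and Itga11 at chr9:62677605-62677904 on the plus strand. Capitals mark matches, on either strand, to 4 short motifs, the ETS core CCGGAA, the RUNX core TGTGGT, the AP-1 site TGANTCA and the GC box GGGCGG.
Itga1: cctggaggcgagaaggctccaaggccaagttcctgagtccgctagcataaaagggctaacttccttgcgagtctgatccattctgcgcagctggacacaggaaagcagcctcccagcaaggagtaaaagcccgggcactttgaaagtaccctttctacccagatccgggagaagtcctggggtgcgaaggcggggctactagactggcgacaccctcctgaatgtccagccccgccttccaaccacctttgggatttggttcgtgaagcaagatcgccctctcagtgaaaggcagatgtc
Itga2: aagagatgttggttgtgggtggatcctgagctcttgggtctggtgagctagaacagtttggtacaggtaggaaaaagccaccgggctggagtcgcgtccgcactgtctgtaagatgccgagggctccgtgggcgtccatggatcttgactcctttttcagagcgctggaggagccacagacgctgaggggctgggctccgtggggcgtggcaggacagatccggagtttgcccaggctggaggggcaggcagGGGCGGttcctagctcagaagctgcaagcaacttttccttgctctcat
Itga10: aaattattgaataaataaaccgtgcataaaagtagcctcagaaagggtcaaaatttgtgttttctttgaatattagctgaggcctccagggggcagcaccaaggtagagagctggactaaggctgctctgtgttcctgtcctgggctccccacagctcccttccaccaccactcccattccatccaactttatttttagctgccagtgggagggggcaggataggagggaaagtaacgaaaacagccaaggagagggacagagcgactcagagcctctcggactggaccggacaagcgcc
Itga11: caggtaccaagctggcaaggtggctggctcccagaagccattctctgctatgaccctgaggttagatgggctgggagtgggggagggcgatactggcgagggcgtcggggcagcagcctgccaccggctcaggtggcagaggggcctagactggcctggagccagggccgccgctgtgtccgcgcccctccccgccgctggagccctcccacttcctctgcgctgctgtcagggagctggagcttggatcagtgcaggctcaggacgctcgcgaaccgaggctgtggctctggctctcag

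Of these 4 windows that of Itga2 holds a match, to 1 GC box, and the other 3 hold no match to any of the 4 motifs. The G and C content was 56.7% for Itga1, 59.3% for Itga2, 51% for Itga10 and 68% for Itga11. Windows were used for 21 of the 32 genes, 24 windows in all. A chromosome left out of these windows was kept in the set of all promoter windows. The GC box was in 10 of these 24 windows and in 35.7% of all 32851 promoter windows. The ETS core, the RUNX core and the AP-1 site were each in 2 of the 24 windows, and in 14.9%, 16.8% and 7.81% of all windows. No match overlapped a match to another motif in the windows printed. A match is a run of letters and was not tested as a binding site.

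Itga10 had the largest change among the 31 genes at E14.5. It stood at 20.1, 22.9 and 18.1 CPM in E14.5 mutants, against 52.6, 49.96 and 52.4 CPM in E14.5 controls. All mutant libraries lay far below all control libraries. Itga10 was 2.53-fold lower (log2 fold change -1.34, with a standard error, SE, of 0.087, adjusted p = 1.18e-05). The E16.5 levels were 11.2, 12.4 and 10.7 CPM in mutants, against 14.4, 15.5 and 13.3 CPM in controls. The groups still did not overlap, but the gap was small (log2 fold change -0.31, SE 0.10, adjusted p = 0.0518). With libraries of the same number paired, Itga10 passed the test at E16.5 (adjusted p = 0.0185). Without E16.5 mutant libraries 1 and 3 its log2 fold change at that age was smaller, at -0.208. The genotype effect at E16.5 minus that at E14.5 was 1.01 log2 units (SE 0.13, adjusted p = 0.000191). Within controls Itga10 was 3.59-fold lower at E16.5 than at E14.5, a comparison that shares its control libraries with the genotype comparisons.

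Itga11 fell by like amounts at both ages. It had 20.1, 23.0 and 21.8 CPM in E14.5 mutants, against 31.9, 33.0 and 35.4 CPM in E14.5 controls. At E16.5 it had 11.2, 11.5 and 12.5 CPM in mutants, against 18.5, 18.4 and 17.1 CPM in controls. No mutant library reached a control library at either age. The log2 fold change was -0.63 at E14.5 (SE 0.0755, adjusted p = 0.000764) and -0.59 at E16.5 (SE 0.0865, adjusted p = 0.00142). The difference between these effects was 0.01 log2 units (SE 0.11, adjusted p = 0.955). With E16.5 mutant library 2 as the only mutant, the log2 fold change at that age was -0.63 (adjusted p = 0.00932).

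Itga1 was the only one of the 4 that rose at both ages. It had 20.9, 21.6 and 22.1 CPM in E14.5 mutants, against 16.9, 14.8 and 17.9 CPM in E14.5 controls. At E16.5 it had 24.1, 16.2 and 22.9 CPM in mutants, against 11.5, 9.34 and 12.2 CPM in controls. At each age all mutant libraries exceeded all controls, and E16.5 mutant library 2 was the lowest of its group. The rise was 1.30-fold at E14.5 (log2 0.38, SE 0.087, adjusted p = 0.0272) and 1.95-fold at E16.5 (log2 0.96, SE 0.17, adjusted p = 0.00371). The E14.5 call did not hold if control library 1 or 2 or mutant library 1 or 2 was left out (adjusted p 0.0557 to 0.0836). At E16.5, with mutant library 2 alone, the log2 fold change was 0.56 (adjusted p = 0.0394).

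Itga2 was at 10.2, 9.72 and 9.31 CPM in E14.5 mutants, against 10.1, 10.3 and 9.88 CPM in E14.5 controls. These overlap, and the test did not pass (adjusted p = 0.785). At E16.5 it was at 16.9, 16.5 and 18.2 CPM in mutants, against 13.6, 13.1 and 14.9 CPM in controls. All 3 mutant libraries were higher, by 1.26-fold (log2 0.34, SE 0.088, adjusted p = 0.0228). This call did not hold if control library 1 or 2 or mutant library 1 or 3 was left out (adjusted p 0.0512 to 0.0959), or both of these mutant libraries (0.242).

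**Figure D2:**
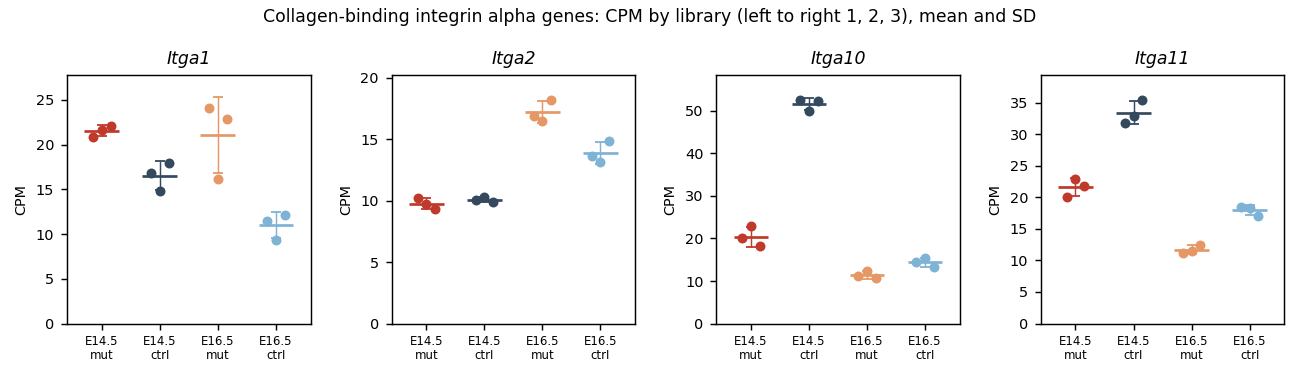
CPM of the 4 collagen-binding integrin alpha genes in each library, mutants left of controls at each age, with a line at the group mean and bars of 1 SD (n = 3). Itga10 in E14.5 mutants (18.1 to 22.9 CPM) lies far under E14.5 controls (49.96 to 52.6 CPM), whereas every mutant library of Itga1 lies above the controls of its age.

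Levels of different genes were compared per kilobase of transcript (CPM per kb), with approximate lengths from the longest coding transcript of each gene. Of the summed CPM per kb of the 4 collagen-binding chains, Itga10 made up 34.4 ± 2.34% in E14.5 mutants and 51.5 ± 1.07% in E14.5 controls. Itga1 made up 16.8 ± 1.04% in E14.5 mutants and 7.57 ± 0.517% in E14.5 controls. A share also moves with the levels of the other genes in the sum. Itga1 itself averaged 1.963 CPM per kb in E14.5 mutants and 1.507 in E14.5 controls, and Itga10 averaged 4.038 and 10.24. At E16.5 Itga11 made up 26.3 ± 1.32% in mutants and 38.4 ± 1.09% in controls, and Itga1 made up 21.3 ± 3.69% in mutants and 10.7 ± 1.52% in controls (SD, n = 3 each).

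**Figure D3:**
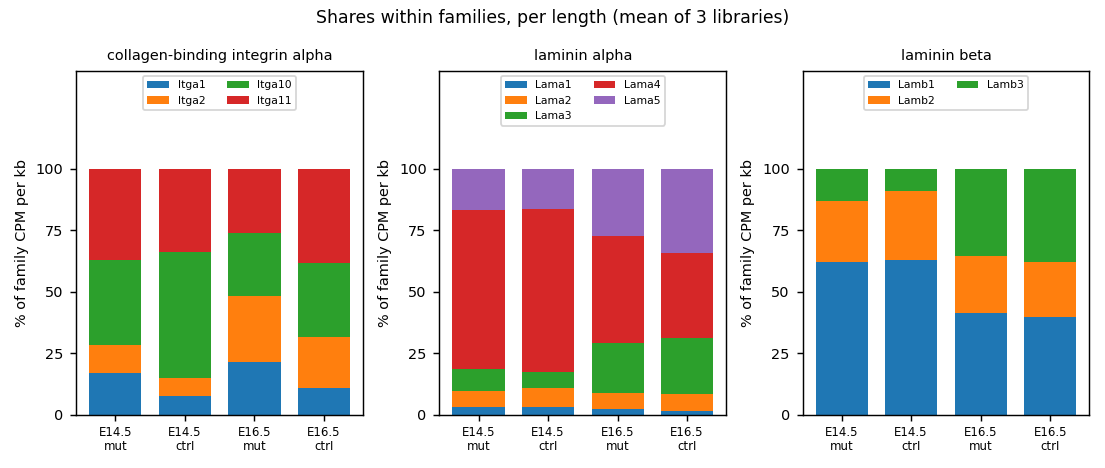
Share of each gene in the summed CPM per kb of its family, by group, mutants left of controls at each age. Itga10 takes 34.4% of the collagen-binding sum in E14.5 mutants and 51.5% in E14.5 controls, and Lama4 is the largest laminin alpha share at E14.5 in mutants (64.8%) and controls (66.4%).

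Among the laminin-binding alpha chains Itga7, the laminin receptor of muscle, changed between genotypes, and Itga3 and Itga6 did not pass the test. Itga7 had 4.52, 5.32 and 3.86 CPM in E14.5 mutants, against 9.13, 6.24 and 6.80 CPM in E14.5 controls. At E16.5 it had 5.68, 4.87 and 6.07 CPM in mutants, against 3.80, 3.28 and 3.54 CPM in controls. The mutant libraries were thus all lower at E14.5 and all higher at E16.5. The log2 fold change was -0.69 at E14.5 (SE 0.17, adjusted p = 0.0366) and 0.67 at E16.5 (SE 0.15, adjusted p = 0.0125). The difference between the effects was 1.34 log2 units (SE 0.23, adjusted p = 0.00143). The E14.5 call did not hold if control library 1 or 3 or mutant library 1 or 3 was left out (adjusted p 0.0704 to 0.12). Nor did the E16.5 call after removal of control library 2 (0.0548), mutant library 3 (0.0502) or mutant libraries 1 and 3 together (0.157).

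Skeletal muscle markers (6 genes) summed to 10.7, 6.06 and 9.55 CPM in E14.5 mutants, against 4.78, 20.9 and 15.6 CPM in E14.5 controls, and these overlap. In E16.5 palates their sums were 7.59, 7.6 and 4.63 CPM in mutants, against 7.56, 13.8 and 7.56 CPM in controls, which also overlap. None of the 6 passed the test at either age, and their median log2 fold change was -0.503 at E14.5 and -0.634 at E16.5. Smooth muscle and pericyte markers (6 genes) summed to 469 to 490 CPM in E14.5 mutants and 451 to 475 CPM in E14.5 controls. At E16.5 they summed to 354, 301 and 347 CPM in mutants, against 224, 205 and 229 CPM in controls. None of these markers was at 0 in any group, and their part in the Itga7 result was not tested.

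Itga3 and Itga6, the laminin receptors of epithelium, were at higher levels and did not pass the test between genotypes. Itga3 averaged 46.1 ± 1.97 CPM in E14.5 mutants and 42.3 ± 7.55 CPM in E14.5 controls (SD, n = 3 each; adjusted p = 0.563). Itga6 averaged 138 ± 9.91 CPM in E14.5 mutants and 144 ± 11.8 CPM in E14.5 controls (adjusted p = 0.683). At E16.5 the adjusted p was 0.309 for Itga3 and 0.428 for Itga6.

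The chains that bind the RGD peptide of fibronectin and related ligands differed at E16.5. Itga5, the alpha chain of the fibronectin receptor, had 109.4, 98.8 and 102 CPM in E16.5 mutants, against 78.7, 69.7 and 77.3 CPM in E16.5 controls. Itga8, the receptor chain for nephronectin, had 159, 129 and 165 CPM in E16.5 mutants, against 91.2, 85.0 and 107 CPM in E16.5 controls. In both genes each mutant library exceeded each control library. Itga5 rose 1.40-fold (log2 0.49, SE 0.077, adjusted p = 0.00221) and Itga8 rose 1.63-fold (log2 0.70, SE 0.12, adjusted p = 0.00326). Neither passed at E14.5, where the log2 fold change was -0.17 for Itga5 (adjusted p = 0.0946) and 0.15 for Itga8 (adjusted p = 0.33). The effect at E16.5 minus that at E14.5 was 0.63 for Itga5 (SE 0.088, adjusted p = 0.000295) and 0.53 for Itga8 (SE 0.16, adjusted p = 0.0316). Without E16.5 mutant libraries 1 and 3 the E16.5 log2 fold change was 0.40 for Itga5 (adjusted p = 0.0295) and 0.45 for Itga8 (adjusted p = 0.0352), and the difference between ages no longer passed for Itga8 (0.257).

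Itga2b, the platelet and megakaryocyte integrin, had 14.4, 19.3 and 14.5 CPM in E16.5 mutants, against 23.6, 26.2 and 21.6 CPM in E16.5 controls. The mutant libraries were all lower, by 1.46-fold (log2 fold change -0.55, SE 0.13, adjusted p = 0.0138). Removal of control library 2 ended the call (adjusted p = 0.0651), as did removal of mutant libraries 1 and 3 (0.206). The 6 platelet markers summed to 22.4 to 25.9 CPM in E16.5 mutants and 26.7 to 27.3 CPM in E16.5 controls. None of the 5 tested passed at that age (median log2 fold change -0.207), and their part in the result was not tested. At E14.5 Itga2b was 4.83 ± 0.927 CPM in mutants and 4.93 ± 0.354 CPM in controls (SD, n = 3 each; adjusted p = 0.925).

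Itga4 and Itga9 form a subfamily of their own, with VCAM-1 and fibronectin as ligands of the first and tenascin C among the ligands of the second. Itga9 passed the test at E14.5 and Itga4 at E16.5. Itga9 had 68.6, 66.1 and 75.4 CPM in E14.5 mutants, against 88.8, 84.7 and 94.5 CPM in E14.5 controls. Each mutant library was lower, and the fall was 1.27-fold (log2 fold change -0.35, SE 0.067, adjusted p = 0.0124). Removal of control library 3 or mutant library 1 or 2 ended the call (adjusted p 0.0507 to 0.0626). In E16.5 palates Itga9 was 32.2 ± 3.05 CPM in mutants and 33.4 ± 2.96 CPM in controls (SD, n = 3 each; adjusted p = 0.86). The effect at E16.5 minus that at E14.5 was 0.30 (SE 0.12) and did not pass (adjusted p = 0.0983; 0.00692 with libraries paired by number).

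Itga4 had 24.0, 17.6 and 22.1 CPM in E16.5 mutants, against 10.3, 11.8 and 14.7 CPM in E16.5 controls. The lowest mutant library, library 2, was above the highest control library. Itga4 rose 1.76-fold (log2 0.82, SE 0.16, adjusted p = 0.00635), and without mutant libraries 1 and 3 the log2 fold change was 0.53 (adjusted p = 0.0783). At E14.5 it was 24.6 ± 3.25 CPM in mutants and 23.1 ± 0.826 CPM in controls (SD, n = 3 each; adjusted p = 0.606).

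Among the beta chains Itgb1, the common partner of the collagen, fibronectin and laminin receptors, was the most abundant per length in each group. It made up 60.8 ± 1.23% of the summed beta CPM per kb in E14.5 mutants and 58.9 ± 0.125% in E14.5 controls, and 56.0 ± 2.97% in E16.5 mutants and 52.3 ± 0.720% in E16.5 controls. Its own level at E14.5 was 791, 799 and 829 CPM in mutants, against 834, 805 and 803 CPM in controls. These overlap (log2 fold change -0.01, SE 0.053, adjusted p = 0.909). In E16.5 palates Itgb1 stood at 704, 698 and 736 CPM in mutants, against 630.3, 620.0 and 655 CPM in controls. All 3 mutant libraries were higher, but the test did not pass (log2 0.19, SE 0.064, adjusted p = 0.0573). It passed with libraries of the same number paired (adjusted p = 0.00805). Without E16.5 mutant libraries 1 and 3 the Itgb1 log2 fold change was smaller, at 0.144. Thus 4 alpha partners of Itgb1 fell at E14.5 (Itga7, Itga9, Itga10 and Itga11) and Itga1 rose, while Itgb1 itself did not pass the test.

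Itgb8, which activates latent transforming growth factor beta as a partner of the Itgav chain, rose at E14.5. It had 6.71, 5.71 and 7.76 CPM in E14.5 mutants, against 3.15, 3.94 and 4.41 CPM in E14.5 controls. The mutant libraries were all higher, by 1.76-fold (log2 0.81, SE 0.16, adjusted p = 0.0139). Removal of mutant library 1 ended the call (adjusted p = 0.0524). The E16.5 level was 7.36 ± 0.754 CPM in mutants and 6.74 ± 1.23 CPM in controls (SD, n = 3 each; adjusted p = 0.51). Itgb6, its relative of epithelium with the same ligand, had 1.73, 2.49 and 2.28 CPM in E14.5 mutants, against 1.06, 1.55 and 1.45 CPM in E14.5 controls, and did not pass the test (adjusted p = 0.0917).

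Itgb7, the beta chain of lymphocyte homing receptors, fell by 2.01-fold at E16.5. It had 4.81, 6.04 and 5.88 CPM in E16.5 mutants, against 11.0, 11.0 and 12.1 CPM in E16.5 controls. The groups were far apart, and the log2 fold change was -1.01 (SE 0.12, adjusted p = 0.000448). Without mutant libraries 1 and 3 it was -0.90 (adjusted p = 0.00259). At E14.5 Itgb7 was 1.997 ± 0.0712 CPM in mutants and 2.15 ± 0.513 CPM in controls (SD, n = 3 each; adjusted p = 0.782). Macrophage and white blood cell markers (5 genes) summed to 59.3 to 61.7 CPM in E16.5 mutants and 63.8 to 66.2 CPM in E16.5 controls, and none of the 5 passed the test. Cornified epithelium markers (5 genes) summed to 2150, 2610 and 2490 CPM in E16.5 mutants, against 4000, 3800 and 4140 CPM in E16.5 controls, and 4 of the 5 fell. The part of either cell type in the Itgb7 result was not tested.

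Itgb3, the beta chain shared by the platelet integrin and a vitronectin receptor, had 12.5, 10.2 and 10.9 CPM in E16.5 mutants, against 7.80, 8.08 and 8.14 CPM in E16.5 controls. Each mutant library was higher, by 1.43-fold (log2 0.51, SE 0.11, adjusted p = 0.012). Removal of control library 1 ended the call (adjusted p = 0.0515), as did removal of mutant libraries 1 and 3 (0.144). Itgb3 and Itga2b, whose products pair on platelets, thus moved in opposite directions at E16.5. Itgb5, a vitronectin receptor chain, averaged 401 ± 14.02 CPM in E14.5 mutants and 446 ± 15.5 CPM in E14.5 controls and did not pass the test (adjusted p = 0.144). Itgb2, the white blood cell chain, was between 1.44 and 2.896 CPM in all 12 libraries and did not pass at either age (adjusted p = 0.304 at E14.5 and 0.607 at E16.5). Itgb2l did not pass the filter on low counts, with 0 to 18 reads in a library.

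**Figure D4:**
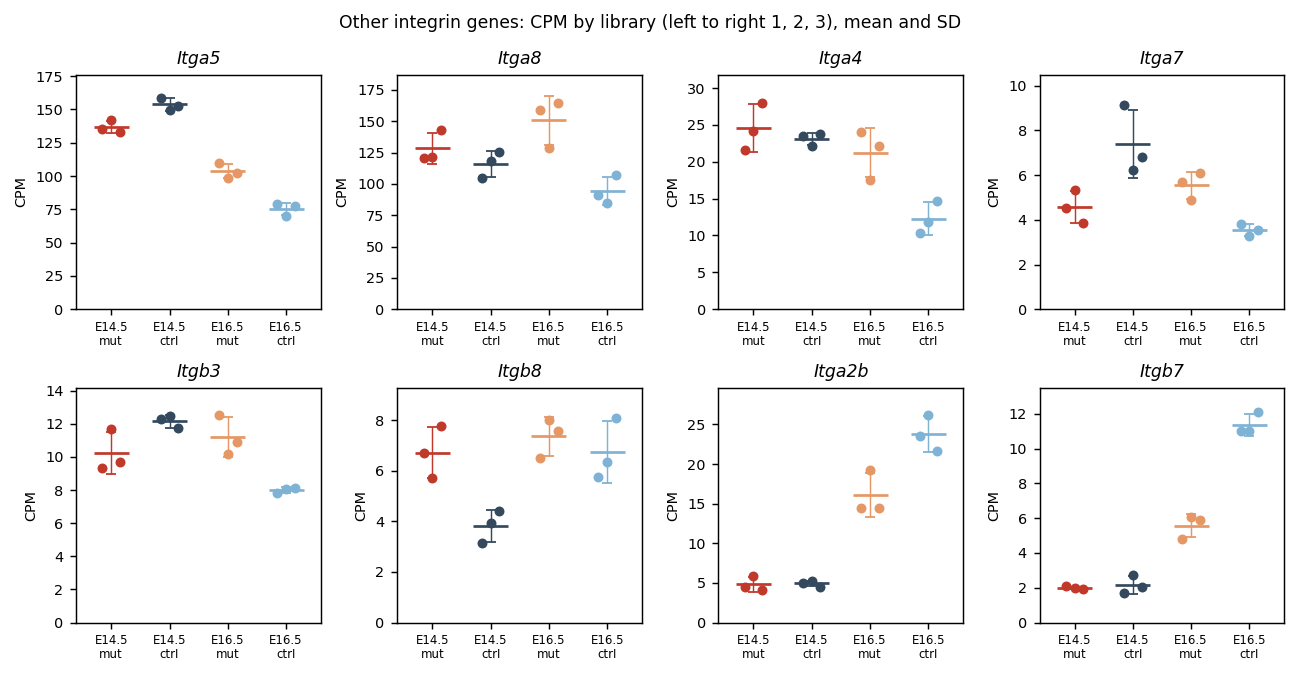
CPM of 8 further integrin genes in each library, mutants left of controls at each age, with a line at the group mean and bars of 1 SD (n = 3). Itgb8 at E14.5 (5.71 to 7.76 CPM in mutants, 3.15 to 4.41 CPM in controls) and Itgb7 at E16.5 (4.81 to 6.04 CPM in mutants, 11.0 to 12.1 CPM in controls) show groups that do not overlap.

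Of the 11 laminin chains Lamb1, Lamb2, Lamc1 and Lamc3 fell at E14.5 (36.4%, against 4.57% of all genes tested). None was called higher (0%, against 2.95%). Lamb2, a beta chain of vascular, muscle and nerve laminins, had 103, 118 and 113 CPM in E14.5 mutants, against 153, 152 and 160.0 CPM in E14.5 controls. Lamb1, the beta chain of the embryonic laminin, had 280.0, 286 and 301 CPM in E14.5 mutants, against 367, 334 and 369 CPM in E14.5 controls. Lamc1, the gamma chain of most laminins, had 243, 251 and 274 CPM in E14.5 mutants, against 309, 309 and 338 CPM in E14.5 controls. In these 3 genes no mutant library reached a control library. The log2 fold change was -0.47 for Lamb2 (SE 0.063, adjusted p = 0.00146), -0.30 for Lamb1 (SE 0.061, adjusted p = 0.0161) and -0.32 for Lamc1 (SE 0.065, adjusted p = 0.0177). Removal of control library 1 or 3 or mutant library 1 or 2 ended the Lamb1 call (adjusted p 0.0646 to 0.0875), and removal of control library 3 or mutant library 1 or 2 that of Lamc1 (0.0725 to 0.095).

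At E16.5 none of the 3 passed. Lamb2 was 128 ± 5.26 CPM in mutants and 122 ± 3.19 CPM in controls (adjusted p = 0.333), Lamb1 was 236 ± 11.8 CPM in mutants and 224 ± 15.2 CPM in controls (adjusted p = 0.347), and Lamc1 was 303 ± 30.9 CPM in mutants and 302 ± 27.8 CPM in controls (SD, n = 3 each; adjusted p = 0.845). The effect at E16.5 minus that at E14.5 was 0.54 log2 units for Lamb2 (SE 0.086, adjusted p = 0.000819) and 0.38 for Lamb1 (SE 0.094, adjusted p = 0.012). For Lamc1 it was 0.32 (SE 0.12) and did not pass (adjusted p = 0.0809; 0.00505 with libraries paired by number).

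The promoter windows of the 2 beta chain genes that fell at E14.5 are shown for comparison, cut and marked in the same way. Lamb1 lies at chr12:31265043-31265342 and Lamb2 at chr9:108479612-108479911, both on the plus strand of GRCm38.p6. That of Lamb1 holds 2 matches to the GC box, and that of Lamb2 holds no match to any of the 4 motifs.
Lamb1: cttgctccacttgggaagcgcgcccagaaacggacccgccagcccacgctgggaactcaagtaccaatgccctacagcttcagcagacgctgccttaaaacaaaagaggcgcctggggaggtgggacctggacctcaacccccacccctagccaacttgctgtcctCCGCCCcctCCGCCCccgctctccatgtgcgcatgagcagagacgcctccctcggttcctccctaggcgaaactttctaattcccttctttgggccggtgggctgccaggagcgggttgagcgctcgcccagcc
Lamb2: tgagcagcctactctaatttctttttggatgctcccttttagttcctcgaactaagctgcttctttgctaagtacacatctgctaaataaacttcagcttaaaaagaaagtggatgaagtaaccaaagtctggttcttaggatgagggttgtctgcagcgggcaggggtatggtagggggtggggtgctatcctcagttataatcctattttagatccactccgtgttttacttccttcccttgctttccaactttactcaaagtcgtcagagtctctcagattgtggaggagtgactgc

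Lamc3, a gamma chain of few tissues that is known from nerve and retina, fell at both ages. It had 8.47, 16.03 and 12.1 CPM in E14.5 mutants, against 19.5, 23.8 and 23.8 CPM in E14.5 controls. At E16.5 it had 20.7, 16.8 and 19.5 CPM in mutants, against 25.7, 22.3 and 28.1 CPM in controls. The groups did not overlap at either age, and the E14.5 mutants had the widest spread. The log2 fold change was -0.88 at E14.5 (SE 0.19, adjusted p = 0.0209) and -0.39 at E16.5 (SE 0.12, adjusted p = 0.0372). Removal of control library 3 ended the E14.5 call (adjusted p = 0.0696). Removal of control library 1 or 3 or mutant library 2 or 3 ended the E16.5 call (0.0641 to 0.109), whereas without mutant libraries 1 and 3 together the log2 fold change was -0.59 (adjusted p = 0.0227).

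Lama4, the alpha chain of vascular and mesenchymal laminins, and Lama1, the alpha chain of the earliest embryonic laminin, rose at E16.5. Lama4 had 205, 163 and 188 CPM in E16.5 mutants, against 135, 120.0 and 135 CPM in E16.5 controls. Lama1 had 15.7, 12.3 and 13.4 CPM in E16.5 mutants, against 8.17, 8.32 and 9.21 CPM in E16.5 controls. In both genes all mutant libraries were higher, with library 2 the lowest of them. Lama4 rose 1.45-fold (log2 0.54, SE 0.10, adjusted p = 0.00561) and Lama1 rose 1.64-fold (log2 0.71, SE 0.12, adjusted p = 0.00337). Without mutant libraries 1 and 3 the log2 fold change was 0.33 for Lama4 (adjusted p = 0.0651) and 0.53 for Lama1 (adjusted p = 0.0333).

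At E14.5 the log2 fold change was -0.09 for Lama4 (adjusted p = 0.354) and -0.14 for Lama1 (adjusted p = 0.324). The effect at E16.5 minus that at E14.5 was 0.60 for Lama4 (SE 0.11, adjusted p = 0.00239) and 0.83 for Lama1 (SE 0.14, adjusted p = 0.00106). Lama4 made up 43.7 ± 7.15% of the summed laminin alpha CPM per kb in E16.5 mutants and 34.3 ± 0.853% in E16.5 controls (SD, n = 3 each). Lama2, the alpha chain of muscle laminin, did not pass at E14.5 (log2 fold change -0.24, adjusted p = 0.0901) or at E16.5 (log2 0.10, adjusted p = 0.523).

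Endothelial markers (7 genes) were lower in E14.5 mutants and higher in E16.5 mutants. They summed to 433, 448 and 466 CPM in E14.5 mutants, against 560, 531 and 569 CPM in E14.5 controls, and 5 of the 7 fell while none rose (2 fell without mutant library 1, and 3 without control library 1, control library 3 or mutant library 2). At E16.5 they summed to 396, 311 and 373 CPM in mutants, against 231, 222 and 237 CPM in controls, and all 7 rose (5 without mutant libraries 1 and 3). Smooth muscle and pericyte markers, whose sums are given above, also lay higher in E16.5 mutants, and 4 of the 6 rose (2 without control library 2, and 3 without mutant libraries 1 and 3). Of the same 6 smooth muscle and pericyte markers 1 fell at E16.5, and at E14.5 1 rose and 2 fell. Osteoblast markers (6 genes) fell at both ages, all 6 of them, with sums of 839 to 873 CPM in E14.5 mutants and 2490 to 2980 CPM in controls of that age, and of 123 to 131 CPM in E16.5 mutants and 484 to 608 CPM in E16.5 controls. Cartilage markers (5 genes) summed to 264 to 285 CPM in E14.5 mutants and 80.8 to 119 CPM in controls of that age, and to 397 to 615 CPM in E16.5 mutants and 64.8 to 81 CPM in E16.5 controls. None of these markers was at 0 in any group, and the part of each cell type in the integrin and laminin results was not tested.

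The epithelial chains Lama3, Lamb3, Lama5 and Itgb4 did not pass the test between genotypes at either age, and single libraries stood apart. Lama3 and Lamb3 encode chains of the anchoring laminin beneath basal keratinocytes, Lama5 a chain of mature basement membranes, and Itgb4 the hemidesmosome chain that pairs with Itga6. Lama3 had 59.2, 53.6 and 56.5 CPM in E14.5 mutants, against 32.1, 52.1 and 46.8 CPM in E14.5 controls. Control library 1 was the lowest, and the test did not pass (log2 0.37, adjusted p = 0.151). Itgb4 likewise stood at 38.4 CPM in E14.5 control library 1, against 62.6 and 58.5 CPM in control libraries 2 and 3.

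At E16.5 mutant library 1 was the low one. Lama3 had 114, 184 and 162 CPM in E16.5 mutants, against 154, 137 and 162 CPM in E16.5 controls. Lamb3 had 127, 212 and 178 CPM in E16.5 mutants, against 176, 173 and 189 CPM in E16.5 controls. Itgb4 had 147, 237 and 218 CPM in E16.5 mutants, against 218, 220.3 and 240.0 CPM in E16.5 controls. Mutant and control libraries overlap in all 3 genes, and none passed the test (adjusted p = 0.87 for Lama3, 0.872 for Lamb3 and 0.485 for Itgb4). Nor did Lama5 (adjusted p = 0.507), Itgb5 (0.719) or Itgb6 (0.154).

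Oral and basal epithelium markers (6 genes) were low in the same libraries. They summed to 1490, 1440 and 1480 CPM in E14.5 mutants, against 824, 1410 and 1180 CPM in E14.5 controls. At E16.5 they summed to 6520, 11100 and 8980 CPM in mutants, against 10700, 10200 and 10500 CPM in controls. None of these markers was at 0 in any group, and their part in the epithelial chain levels was not tested.

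**Figure D5:**
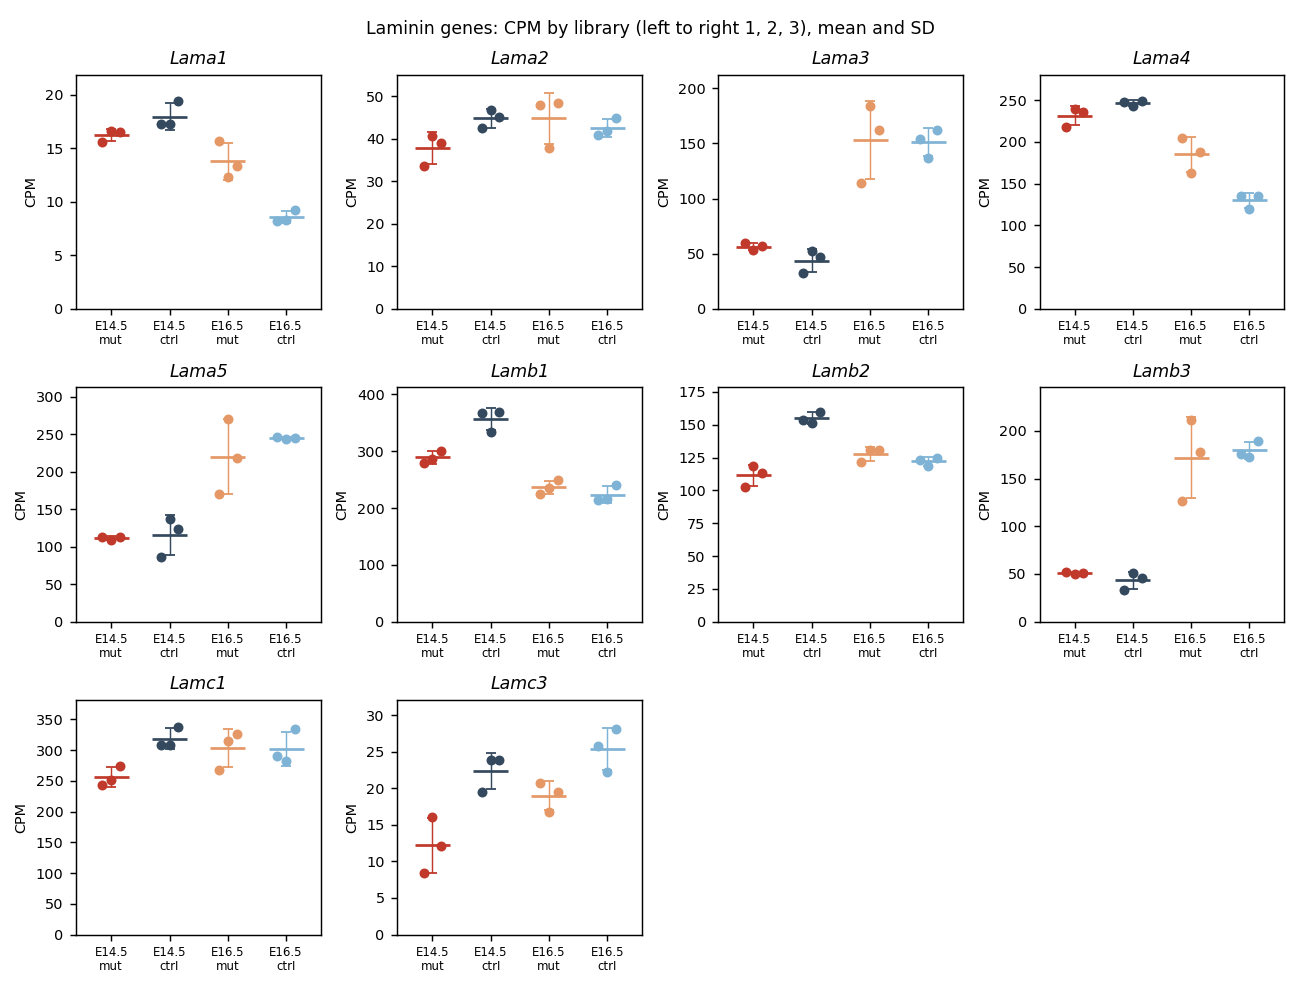
CPM of 10 laminin genes in each library, mutants left of controls at each age, with a line at the group mean and bars of 1 SD (n = 3). Lamb2 lies lower in E14.5 mutants (103 to 118 CPM) than in E14.5 controls (152 to 160.0 CPM), and Lama3 in E16.5 mutants spreads from 114 to 184 CPM around its controls (137 to 162 CPM).

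Age moved more of these genes than genotype did, as it did genes at large. Between E16.5 and E14.5 controls 27 of 31 genes passed (87.1%, against 66.4% of all genes tested), 12 of them higher at E16.5 (38.7%, against 34.3%) and 15 lower (48.4%, against 32.1%). Between E16.5 and E14.5 mutants 20 passed (64.5%, against 51.6%), 13 of them higher (41.9%, against 27.2%) and 7 lower (22.6%, against 24.4%). Without E16.5 mutant libraries 1 and 3 the 20 became 19, with Itgb1 (adjusted p = 0.058) and Lamc3 (0.152) no longer past the test and Lama1 past it. These comparisons share all their libraries with the genotype comparisons.

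In controls Itgb4 and Lamb3, chains of epithelium, were higher at E16.5. Itgb4 averaged 226 ± 11.97 CPM in E16.5 controls and 53.2 ± 13.0 CPM in E14.5 controls (log2 fold change 2.09, SE 0.18, adjusted p = 4.01e-07). Lamb3 averaged 179 ± 8.64 CPM in E16.5 controls and 43.3 ± 8.74 CPM in E14.5 controls (log2 2.05, SE 0.17, adjusted p = 2.08e-07). Lama3, Itga3, Itgb6 and Lama5 were higher by 1.79, 1.61, 1.45 and 1.08 log2 units. In mutants the same age difference was 1.77 for Itgb4, 1.75 for Lamb3, 1.44 for Lama3, 1.25 for Itga3 and 0.98 for Lama5. Itgb6 at 0.26 did not pass in mutants (adjusted p = 0.377). Marker lists moved with age too. In mutants 6 of 6 oral and basal, 5 of 5 cornified and 4 of 5 nasal and ciliated epithelium markers were higher at E16.5, and in controls all of these were (median log2 differences 2.3, 5.94 and 2.67). Endothelial markers were lower at E16.5 in 5 of 7 genes in mutants and 7 of 7 in controls, and palate mesenchyme markers in 6 of 8 in each. Their part in the age differences of the chains was not tested.

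Itgb7 and Itga2b had the largest age differences in controls. Itgb7 averaged 11.4 ± 0.629 CPM in E16.5 controls and 2.15 ± 0.513 CPM in E14.5 controls (log2 2.39, SE 0.16). Itga2b averaged 23.8 ± 2.28 CPM in E16.5 controls and 4.93 ± 0.354 CPM in E14.5 controls (log2 2.27, SE 0.15). In mutants the age difference was 1.48 for Itgb7 and 1.73 for Itga2b.

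Of the 15 chains lower at E16.5 in controls, the 8 with the largest differences are given. The log2 difference was -1.84 for Itga10, -1.42 for Itga9, -1.07 for Lama1, -1.06 for Itga7, -1.03 for Itga5, -0.92 for Lama4, -0.91 for Itga4 and -0.89 for Itga11. In mutants it was -0.83 for Itga10, -1.12 for Itga9, -0.40 for Itga5, -0.32 for Lama4 and -0.88 for Itga11, all past the test. For Lama1 (-0.24, adjusted p = 0.0586, or -0.38, adjusted p = 0.0261, without E16.5 mutant libraries 1 and 3), Itga4 (-0.21, adjusted p = 0.228) and Itga7 (0.28, adjusted p = 0.176) it did not pass in mutants.

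The genes around the receptors were read from 4 lists. Of 22 genes of the adhesion machinery inside the cell, none rose and 4 fell at E14.5 (18.2%, against 4.57% of all genes lower), with a median log2 fold change of -0.07. The 4 were Tln1, the talin that activates integrins, with a log2 fold change of -0.49 (adjusted p = 0.00511), Parvb, a parvin of the integrin-linked kinase complex, with -0.39 (0.00265), the scaffold Bcar1 with -0.27 (0.0335) and the tensin Tns3 with -0.27 (0.0323). At E16.5, 7 rose and 1 fell, with a median of 0.17, and these 8 are 36.4% of the list, against 27.9% of all genes. By direction, 31.8% rose and 4.55% fell, against 12.2% and 15.7% of all genes. Tns2 rose by 0.65 (adjusted p = 0.000722), Tns1 by 0.51 (0.00878) and the talin Tln2 by 0.43 (0.0024), while the log2 fold change of Parvb was -0.98 (0.000198). The calls of Bcar1 and Tns3 ended on removal of control library 1 or 3 or mutant library 1 or 2 (adjusted p 0.0666 to 0.148). At E16.5 the number that rose was 4 on removal of control library 1 or 2, and 2 without mutant libraries 1 and 3, where Tns1 did not pass (0.137). Itgav, the lettered alpha chain that partners Itgb3, Itgb5, Itgb6 and Itgb8, did not pass at E14.5 (log2 fold change -0.00, adjusted p = 0.996) or at E16.5 (0.14, adjusted p = 0.63).

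Of 21 other basement membrane genes, none rose and 4 fell at E14.5 (median log2 fold change -0.20), and 7 rose and none fell at E16.5 (median 0.15). The shares called were 19% at E14.5, against 7.52% of all genes, and 33.3% at E16.5, against 27.9%. With both directions counted, the E16.5 share of either list is thus near that of all genes. By direction it is not, since 33.3% of the basement membrane genes rose and 0% fell, against 12.2% and 15.7% of all genes. At E14.5 the log2 fold change was -0.63 for Fras1, which anchors epithelium to its basement membrane (adjusted p = 0.000375), -0.50 for Nid2, a nidogen that links laminin to collagen IV (0.0103), -0.45 for Npnt, the Itga8 ligand nephronectin (0.00123), and -0.39 for Col15a1, a basement membrane zone collagen (0.00541). At E16.5 Smoc1 rose by 0.66 (adjusted p = 0.00853), Col15a1 by 0.47 (0.00774), Frem1, a Fras1 relative, by 0.44 (0.0216) and Nid2 by 0.35 (0.0375). The number that fell at E14.5 was 7 on removal of control library 2 and 8 on removal of mutant library 3, and Nid2 did not pass on removal of mutant library 1 (adjusted p = 0.0539). The number that rose at E16.5 was 2 on removal of control library 1, control library 2 or mutant library 3, and 4 on removal of mutant library 1. Frem1 did not pass on removal of any control library or of mutant library 3 (0.0527 to 0.0763), nor Nid2 on removal of control library 1 or 2 or mutant library 1 or 3 (0.103 to 0.14). Without mutant libraries 1 and 3 together 2 rose, Ntn4 (log2 0.45, adjusted p = 0.0293) and Col18a1 (log2 0.42, adjusted p = 0.0293), named after their values were seen, and none of the 4 genes above passed (0.137 to 0.576).

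The other integrin ligands held the largest changes of the 4 lists. Of 17 tested at E14.5, 1 rose and 7 fell (median -0.28), and of 18 tested at E16.5, 6 rose and 4 fell (median 0.18). The shares called were 47.1% at E14.5 and 55.6% at E16.5, against 7.52% and 27.9% of all genes. The 6 became 3 on removal of control library 2 or 3 or mutant library 1 or 3, and 4 on removal of control library 1. Without mutant libraries 1 and 3 together 3 rose (Tnc, Ctgf and Tgfbi) and 5 fell (Fn1, Ibsp, Spp1, Postn and Edil3). The 1 that rose at E14.5 was the thrombospondin Thbs1 (log2 0.32, adjusted p = 0.0211), and its call ended on removal of control library 1 or mutant library 1 or 2 (0.0524 to 0.095). Fn1, fibronectin, had 762, 778 and 835 CPM in E14.5 mutants, against 1476, 1302 and 1445 CPM in E14.5 controls, with a log2 fold change of -0.83 (adjusted p = 5.29e-05). At E16.5 it had 52.3, 106 and 91.7 CPM in mutants, against 533, 592 and 623 CPM in controls, with a log2 fold change of -2.79 (adjusted p = 4.81e-05), or -2.45 without mutant libraries 1 and 3 (3.8e-06). At E16.5 the fibronectin gene thus fell while its receptor chain Itga5 rose.

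Ibsp and Spp1, RGD ligands made by bone cells, had log2 fold changes of -2.18 and -3.73 at E14.5 and of -3.26 and -1.86 at E16.5 (adjusted p 1.63e-06 and 0.000455, and 6.33e-06 and 0.000127). Cyr61, a matricellular ligand, was at -0.86 at E14.5 (adjusted p = 0.0135). At E16.5 Madcam1, the ligand of the Itga4 and Itgb7 pair, rose by 0.83 (adjusted p = 0.0219), with 2.16 to 3.13 CPM in mutants and 1.42 to 1.71 CPM in controls. Removal of any control library, or of mutant library 1 or 3, ended the Madcam1 call (0.0565 to 0.0849), as did removal of both mutant libraries (0.326). Of the 4 hemidesmosome partners 1 rose at E14.5, the tetraspanin Cd151 (log2 0.33, adjusted p = 0.0311), and none passed at E16.5. The Cd151 call ended on removal of control library 1 or 3 or mutant library 1 or 2 (0.0826 to 0.133).

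The authors' deposited table for E14.5 gave 4 of the genes as higher and 10 as lower, of 31 with an adjusted p. The authors' deposited table for E16.5 gave 10 as higher and 5 as lower, of 32. The share of all genes called in these 2 tables was not computed. DESeq2 as run here called 14 of the genes at E14.5 and 15 at E16.5. It called 2132 of all 16650 genes tested at E14.5 and 5672 of 17169 at E16.5. The authors' deposited tables hold, in the same direction, all 10 E14.5 calls and all 13 E16.5 calls given above. They come from the same series as those calls, so this is not independent support.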

How the data were processed

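The authors aligned reads to mm9 with HISAT2 and counted genes with featureCounts, per the submitters' processing notes; versions, annotation and strand setting are not given in the sources used here, so reads of a gene and of an overlapping or antisense gene cannot be told apart. The deposited files hold raw counts per gene. The authors' DESeq2 tables hold a log2 fold change and an adjusted p-value per gene, per the file headers. The whole-series tables, with 24 value columns, were left aside, and 27 symbols turned into dates were kept as deposited.

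Genotypes were compared within each age, and ages and the difference between genotype effects over all 12 libraries, with edgeR 4.0.16 (R 4.3.3): TMM scaling, filterByExpr, and the quasi-likelihood test with Benjamini-Hochberg adjustment over all genes tested, called at 0.05. The standard error is the absolute log2 fold change over the square root of F. No libraries were identical. Steps were tested on simulated data. Alternatives used DESeq2 1.42.0, limma 3.58.1 and left-out libraries. At E16.5 same-numbered mutant and control libraries deviated together (correlations 0.105, 0.161 and 0.222 over 17550 genes, limit 0.1), so pairing by number was applied as a check. For the difference between the genotype effects the pairing also covers the E14.5 libraries, where the correlations were 0.0193, 0.0445 and 0.16. The paired p-values of that difference thus rest on a pairing that the E14.5 libraries numbered 1 and 2 do not show. All 32 genes enter the counts, and 1 of them is not reported here by name; values per library are given for called genes, and of each surrounding list at most 4 called genes per genotype comparison are named. Itgb1, Itgb6, Fn1 and the epithelial chains are also given per library, chosen after their values were seen, as was leaving libraries out of the list counts. The members and lists were chosen with earlier results of these data known.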

Additional observations from a re-analysis of the deposited data

Results flagged for a closer look

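In 13 genes the difference between the genotype effects at E16.5 and E14.5 passed the edgeR quasi-likelihood test over all 12 libraries with Benjamini-Hochberg adjustment. A positive value means that the mutant minus control log2 difference was higher at E16.5. The difference was 1.34 for Itga7, 1.01 for Itga10, 0.832 for Lama1, 0.733 for Itgb3, 0.701 for Itga4, 0.631 for Itga5, 0.604 for Lama4, 0.538 for Lamb2, 0.529 for Itga8, 0.381 for Lamb1 and 0.361 for Itga2. It was -1.19 for Itgb6 and -0.913 for Itgb7.

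Itga10, Itga7, Itga5, Lama1, Lama4, Lamb1 and Lamb2 passed under each of the 22 alternatives. Itga2 was lost without E14.5 control library 1 or 3, E14.5 mutant library 3, E16.5 control library 2 or E16.5 mutant library 3 (adjusted p 0.051 to 0.0622). Itga8 was lost without E14.5 control library 3, E14.5 mutant library 1 or 2, E16.5 control library 1 or 2, or E16.5 mutant library 1 or 3 (0.0546 to 0.0785). Itga4 was lost without E14.5 control library 1 or 3, E14.5 mutant library 1 or E16.5 control library 2 (0.0507 to 0.0558). Itgb6 was lost without E14.5 control library 1, E14.5 mutant library 2, or E16.5 control library 1 or 3 (0.0514 to 0.0589). With replicates 1 and 2 alone the calls of Itga2 (0.104), Itga8 (0.0518), Itgb3 (0.0604), Itgb6 (0.142) and Itgb7 (0.128) were lost. Without E16.5 mutant libraries 1 and 3 together, the calls of Itga2 (adjusted p = 0.165), Itga8 (0.257), Itga4 (0.217), Itgb6 (0.105) and Itgb7 (0.0896) were lost.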

How the results depend on the processing

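No call of a gene among the 32 reversed its direction under any alternative tried, whereas the sign of genes near 0 that were not called, such as Itga3 at E14.5 (-0.0188 to 0.202), changed under some. At E14.5 the 10 calls became 16 with replicates paired by number as a block, and 6 with replicates 1 and 2 alone. Of the same-numbered libraries there, those numbered 3 deviated together beyond the limit of 0.1 and the others did not (correlations 0.0193, 0.0445 and 0.16). The libraries numbered 3 deviated together in every pair of groups (0.136 to 0.222). At E16.5 the 13 calls became 6 with replicates 1 and 2 alone and 8 without mutant replicates 1 and 3. The 13 interaction calls became 8 with replicates 1 and 2 alone, 17 with DESeq2 and 19 with the replicate block. Leaving out 1 library at a time gave 4 to 10 calls at E14.5, with the lowest counts (4, 5 and 6) on leaving out mutant 1, control 3 and mutant 2. It gave 10 to 13 calls at E16.5, 10 to 18 for the interaction, 26 to 27 for age in controls and 19 to 22 for age in mutants. At E16.5 the block gave 15 calls and changed no other call than those of Itga10 and Itgb1. DESeq2 gave 14 calls at E14.5 and 15 at E16.5. Over all genes, the 1252 calls at E14.5 became 2132 with DESeq2, 3155 with the block, 2938 with a term for the replicates numbered 3 and 526 to 1412 with 1 library left out. The 4793 at E16.5 became 2286 with replicates 1 and 2 alone, 2496 without mutant replicates 1 and 3, and 3079 and 2781 on leaving out control 1 and control 2. The 3921 of the interaction became 6055 with the block, 1961 with replicates 1 and 2 alone and 2017 without E16.5 mutant replicates 1 and 3. Itga10, Itga11 and Lamb2 passed at E14.5, and Itga11, Itga5, Itga8, Itgb7 and Lama1 at E16.5, under every alternative tried. A left-out fit with 1 mutant library assumes that it varies like the other libraries.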
